A study of Homo sapiens with 7 samples.

Results

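The DNA replication and S phase genes are the genes whose products license and fire replication origins, copy the chromosomes, supply deoxynucleotides and package the new DNA. They were chosen by symbol from a list of 57 genes, with earlier results of these data known, and 56 of them had values in all 7 libraries, among 11408 genes with values. The remaining gene, UHRF1, which maintains DNA methylation behind the fork, had no library values. In the authors' deposited table its log2 fold change was 0.0023 with guide 3 (false discovery rate 0.994) and 0.079 with guide 5 (false discovery rate 0.834). The libraries hold poly(A)-selected RNA of MOLM13, a human acute myeloid leukemia line grown in culture, taken 6 days after transduction with a guide RNA. There were 4 libraries labelled sgZFP36L2, 2 with each of 2 guides against the RNA decay factor ZFP36L2 (called guide 3 and guide 5 after the deposited columns), and 3 with the non-targeting guide sgRosa. All 7 came from the same line, both guides were compared with the same 3 sgRosa libraries, and the labels name no clone, sort or selection. Nothing in the labels says that replicates were separate cultures, and the p-values below therefore cover only the variation among these 7 libraries, which may be technical.

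Before S phase the origin recognition complex, CDC6 and CDT1 load the ring of MCM2 to MCM7 onto DNA. The kinase CDC7 and the factors MCM10, CDC45 and GINS then turn this ring into a moving helicase. Polymerase alpha with primase starts each strand, the clamp loader sets the PCNA clamp, and polymerases delta and epsilon extend the DNA. Many of these genes are transcribed around the entry into S phase under E2F factors, and leukemia lines in culture divide steadily. ZFP36L2 binds AU-rich elements in 3′ untranslated regions and promotes mRNA decay.

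Values are CPM (read counts scaled to an adjusted library size), recovered from the deposited values. Changes are log2 differences of CPM + 0.5, sgZFP36L2 minus sgRosa, ± SE. Reads on the listed genes came to 28088053 to 38807816 in libraries labelled sgZFP36L2 and 16907955 to 25164359 in those labelled sgRosa. A replication gene had between 199 reads (POLA2) and 29931 reads (MCM4) in a library, with a median of 2427. ZFP36L2 itself (chr2:43222402-43226609, minus strand, GRCh38) had 1132 and 1353 CPM with guide 3 and 734 and 690 CPM with guide 5, against 337, 334 and 311 CPM in the sgRosa libraries. Its mRNA was thus higher in every library labelled sgZFP36L2, by 1.52 ± 0.16 (limma, adjusted p = 1.28e-05). The mRNA level does not show whether the protein was lost, and directions below go by the library labels. Of the myeloid markers, 10 of 10 had values, with sums of 11536 to 20834 CPM in sgZFP36L2 libraries and 5615 to 8293 CPM in sgRosa libraries. Most of each sum was LYZ, at 9387 to 18451 CPM in sgZFP36L2 libraries and 3623 to 6708 CPM in sgRosa libraries. Of the 10 markers 4 rose and 3 fell (FLT3, MPO and MEIS1), and the others did not pass (limma, adjusted p under 0.05). Of the lymphoid, erythroid, epithelial and fibroblast markers only CD3D (5.70 to 7.98 CPM against 13.6 to 18.5 CPM in sgRosa) and KRT18 (1.07 to 2.01 CPM against 1.08 to 3.64 CPM in sgRosa) had values.

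Most replication genes were lower in the libraries labelled sgZFP36L2. Of the 56 genes, 39 fell and 1 rose, while 16 did not pass the threshold (limma, Benjamini-Hochberg over all 11408 genes, adjusted p under 0.05, two-sided). Over all genes, 20.6% fell and 20.9% rose. The median change of the replication genes was -0.68, with a range of -1.14 to 0.54, beside a median of -0.05 over all genes, and 51 of the 56 lay below 0. For 40 genes every sgZFP36L2 library was below every sgRosa library, and for 2 every one was above, where 23.7% and 19.8% of all genes separated in those directions. The summed level of the 56 genes was 5574 and 6491 CPM with guide 3 and 6440 and 6465 CPM with guide 5, against 9238, 10164 and 9040 CPM in the sgRosa libraries. The sums of the arms did not overlap. In bulk RNA, fewer cells in S phase and less of these mRNAs per cell cannot be told apart.

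The fall came beside a rise of monocyte genes. The 7 markers of monocytic differentiation were chosen with earlier results of these data known. All 7 (CD14, ITGAM, FCN1, S100A8, S100A9, S100A12 and CSF1R) rose, where 20.9% of all genes did. The summed level of the 7 markers was 529 to 1659 CPM in sgZFP36L2 libraries against 69.5 to 88.7 CPM in sgRosa libraries. The part of these markers in the fall of replication genes was not tested.

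**Figure D1:**
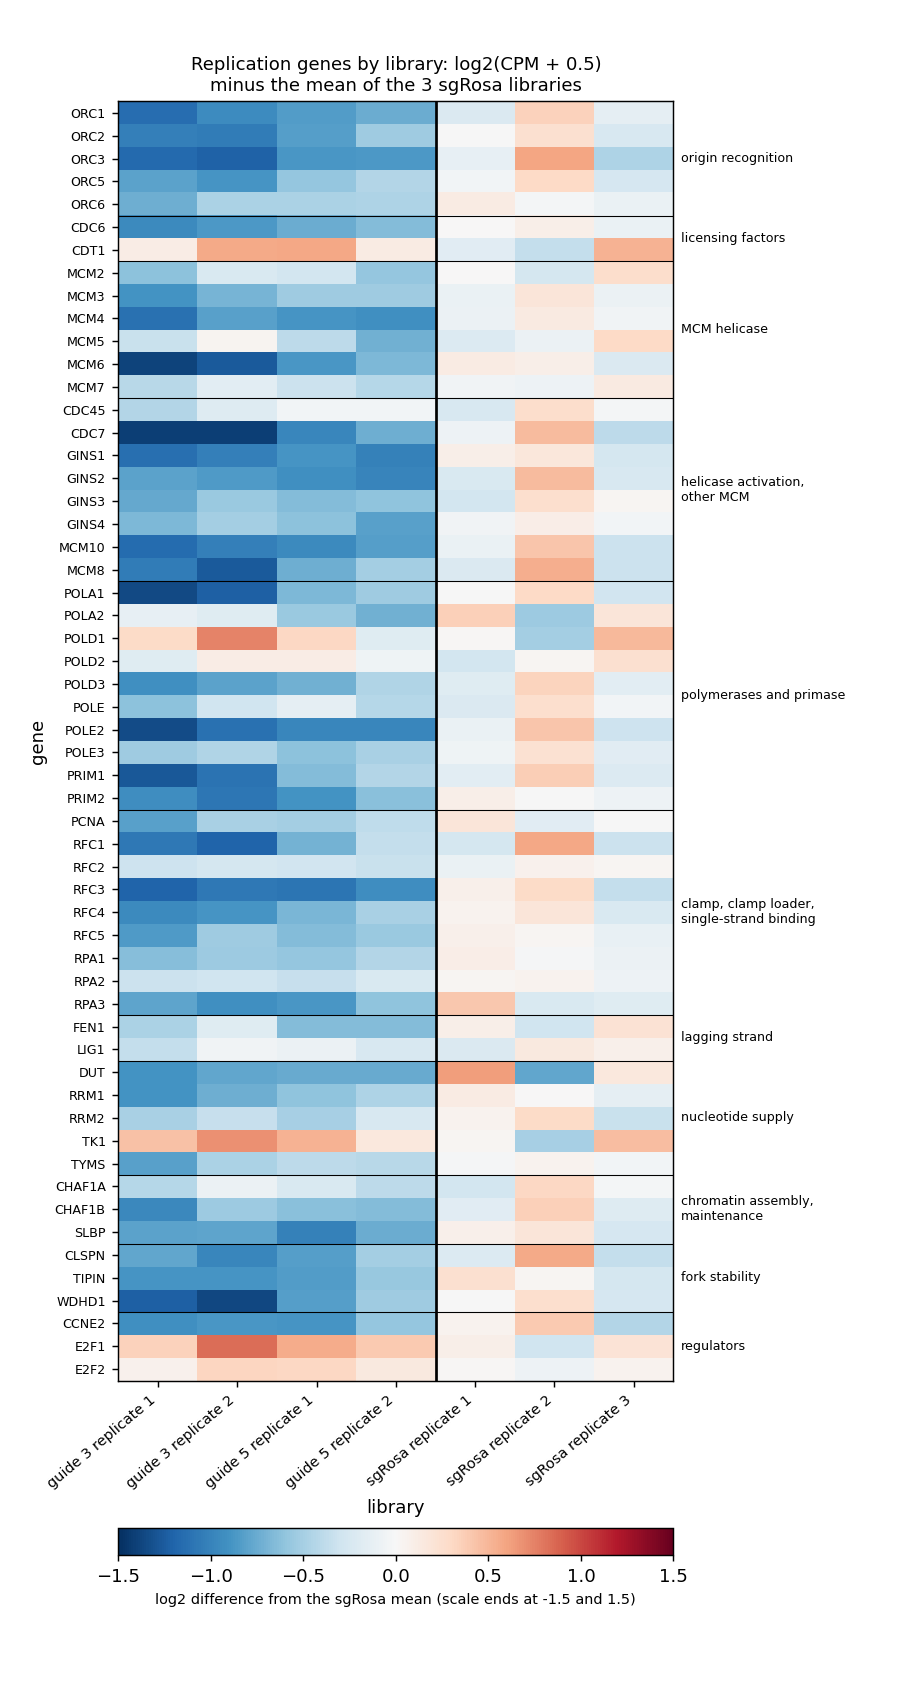
Each of the 56 replication genes (rows, grouped by role) in each of the 7 libraries (columns), as log2(CPM + 0.5) minus the mean of the 3 sgRosa libraries, blue for lower and red for higher. The 4 sgZFP36L2 columns are blue for most rows, and CDT1, POLD1, TK1, E2F1 and E2F2 are the rows with a positive change, while sgRosa replicate 2 is the highest sgRosa library for 35 of 56 genes.

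Motifs of the kind bound by E2F, the factor family that times S phase transcription, were found in the promoters of many of these genes. The RefSeq table (GRCh38.p14, 250 bases before to 50 after each start) held promoters for 49 of the 56. The motifs searched were TTTCCCGC, TTTCGCGC, TTTGCCGC and TTTGGCGC on both strands, with overlaps allowed. At least 1 was present in 22 of the 49 promoters (44.9%), against 5.66% of the 8371 promoters of tested genes in the table. Among the genes that fell, 14 of 34 promoters held a motif, and among the others 8 of 15 did. The sequence CCAAT, on either strand, was in 55.1% of the 49 and 37.3% of the 8371. A match is a run of letters and not a shown site of binding.

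Shown here are the promoters of MCM6, POLE2 and GINS1, which are among the lowest changes, and of E2F1, with the E2F-type motifs in capitals. E2F1 was the gene that rose, but it was not called after correction for transcript GC content (-0.13). MCM6 (chr2:135876394-135876693, minus strand) has 2 stretches in which motifs of both strands overlap, POLE2 (chr14:49688165-49688464, minus strand) and GINS1 (chr20:25407423-25407722, plus strand) have 1 match each, and E2F1 (chr20:33686336-33686635, minus strand) has 2.
MCM6: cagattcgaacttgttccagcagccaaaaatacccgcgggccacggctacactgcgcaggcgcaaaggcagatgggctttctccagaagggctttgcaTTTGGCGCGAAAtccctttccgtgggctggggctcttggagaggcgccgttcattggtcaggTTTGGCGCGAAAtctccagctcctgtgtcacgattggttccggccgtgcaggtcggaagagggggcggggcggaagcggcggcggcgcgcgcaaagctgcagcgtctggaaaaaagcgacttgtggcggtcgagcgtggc
POLE2: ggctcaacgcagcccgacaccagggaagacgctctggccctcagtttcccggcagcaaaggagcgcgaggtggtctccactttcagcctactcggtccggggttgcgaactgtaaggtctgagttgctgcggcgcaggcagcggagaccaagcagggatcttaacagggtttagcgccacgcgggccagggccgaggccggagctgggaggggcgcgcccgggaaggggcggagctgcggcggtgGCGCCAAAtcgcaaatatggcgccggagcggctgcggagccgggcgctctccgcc
GINS1: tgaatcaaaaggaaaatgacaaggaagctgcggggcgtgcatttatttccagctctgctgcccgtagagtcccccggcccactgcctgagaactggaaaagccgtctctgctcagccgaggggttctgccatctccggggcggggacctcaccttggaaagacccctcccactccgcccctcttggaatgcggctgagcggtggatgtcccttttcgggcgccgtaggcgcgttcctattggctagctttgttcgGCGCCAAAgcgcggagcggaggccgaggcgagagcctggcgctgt
E2F1: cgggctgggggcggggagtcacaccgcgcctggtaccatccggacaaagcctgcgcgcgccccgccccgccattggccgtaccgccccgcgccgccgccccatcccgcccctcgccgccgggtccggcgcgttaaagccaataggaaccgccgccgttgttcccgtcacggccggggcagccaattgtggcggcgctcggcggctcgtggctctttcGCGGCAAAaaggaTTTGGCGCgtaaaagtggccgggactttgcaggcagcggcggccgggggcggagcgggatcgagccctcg

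All 5 subunits of the origin recognition complex among the 56 genes fell, with a median change of -0.86, where 20.6% of all genes fell. The median transcript GC content of the 5 was 41.8%, and 1853 of the 4563 genes under 45.77% GC fell. ORC3, a core subunit (chr6:87590067-87667453, plus strand), had 32.4 and 31.6 CPM with guide 3 and 39.9 and 40.4 CPM with guide 5, against 67.3, 111 and 53.1 CPM in sgRosa libraries. The arms did not overlap, and sgRosa replicate 2 stood well above the other two sgRosa libraries. The change of ORC3 was -1.03 ± 0.23 (limma, adjusted p = 0.0039). ORC1, the subunit that comes and goes with the cell cycle in human cells, averaged 49.9 ± 5.81 CPM in sgZFP36L2 (SD, n = 4) and 95.6 ± 21.2 CPM in sgRosa libraries (SD, n = 3), a change of -0.92. ORC2 (-0.86), ORC5 (-0.68) and ORC6 (-0.54) also fell, none of them with overlapping arms. ORC4, a further subunit that is not one of the 56 and was looked up after its values were seen, fell too (-0.79, limma adjusted p = 0.0084). Once transcript GC content was corrected for, ORC4 was not called (-0.26, limma adjusted p = 0.16), nor were ORC3, ORC5 and ORC6.

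The licensing factors differed from each other before transcript GC content was corrected for. CDC6, the ATPase that helps to load the helicase (chr17:40287633-40304657, plus strand), had 69.6 and 74.2 CPM with guide 3 and 80.6 and 85.6 CPM with guide 5, against 136, 144 and 126 CPM in sgRosa libraries. Every sgZFP36L2 library lay below every sgRosa library, and the change was -0.80 ± 0.16 (limma, adjusted p = 0.0018). CDT1, its partner in loading, had 84.0, 116, 116 and 84.8 CPM in sgZFP36L2 libraries and 69.2, 60.5 and 112 CPM in sgRosa libraries. The arms of CDT1 overlapped, and its change of 0.35 ± 0.23 did not pass the threshold (limma, adjusted p = 0.23). CDT1 was called higher without sgRosa replicate 3 (0.61). Once transcript GC content was corrected for, it was called lower (-0.37, limma adjusted p = 0.022), as was CDC6 (-0.54).

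Within the MCM helicase, all 6 subunits lay below 0, but only MCM3, MCM4 and MCM6 passed the threshold. MCM6 (chr2:135839626-135876426, minus strand) had 161 and 176 CPM with guide 3 and 231 and 266 CPM with guide 5, against 460, 449 and 365 CPM in sgRosa libraries. The sgZFP36L2 values were all lower, with guide 3 lower than guide 5, and the change was -1.05 ± 0.16 (limma, adjusted p = 0.0004). MCM4, the most read of the replication genes, averaged 667 ± 59.7 CPM in sgZFP36L2 (SD, n = 4) and 1273 ± 110 CPM in sgRosa libraries (SD, n = 3), a change of -0.93. MCM3 changed by -0.66. MCM2 (-0.42, limma adjusted p = 0.081), MCM5 (-0.35, adjusted p = 0.14) and MCM7 (-0.33, adjusted p = 0.11) did not pass. These subunits work as a ring with 1 copy of each, and their measured mRNA changes spanned -1.05 to -0.33.

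The factors that activate the helicase were among the lowest. CDC7, the kinase that acts on the loaded MCM ring (chr1:91500893-91525764, plus strand), had the lowest change of all 56 genes. It had 23.6 and 23.6 CPM with guide 3 and 32.2 and 38.3 CPM with guide 5, against 60.7, 88.8 and 48.5 CPM in sgRosa libraries. The highest sgZFP36L2 value was below the lowest sgRosa value, and the change was -1.14 ± 0.21 (limma, adjusted p = 0.0013). GINS1, a subunit of the GINS complex (chr20:25407727-25452628, plus strand), had 41.7 and 44.8 CPM with guide 3 and 49.4 and 45.4 CPM with guide 5, against 97.3, 104 and 76.7 CPM in sgRosa libraries. These values were close to each other within the sgZFP36L2 arm and the arms did not overlap, with a change of -1.01 ± 0.17 (limma, adjusted p = 0.0007). GINS2 (-0.89), GINS3 (-0.64) and GINS4 (-0.65) also fell, so all 4 GINS subunits did, where 20.6% of all genes fell. MCM10, which helps to fire origins (chr10:13161554-13211104, plus strand), had 66.0, 72.3, 75.7 and 82.9 CPM in sgZFP36L2 libraries and 138, 197 and 118 CPM in sgRosa libraries, again without overlap. Its change was -0.99 ± 0.19 (limma, adjusted p = 0.0018), and that of MCM8, a helicase of recombination, was -0.89. CDC45, the remaining helicase cofactor, averaged 77.2 ± 9.59 CPM in sgZFP36L2 (SD, n = 4) and 87.8 ± 15.9 CPM in sgRosa libraries (SD, n = 3) with overlapping values, and did not pass (limma, adjusted p = 0.43).

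Of the 10 polymerase and primase genes, 6 fell, where 20.6% of all genes did. The median transcript GC content of the 10 was 45.1%. POLE2, an accessory subunit of polymerase epsilon (chr14:49643555-49688422, minus strand), had 12.2 and 14.4 CPM with guide 3 and 16.0 and 15.9 CPM with guide 5, against 29.7, 42.6 and 25.6 CPM in sgRosa libraries. No sgZFP36L2 library reached the lowest sgRosa library, and the change was -1.11 ± 0.21 (limma, adjusted p = 0.0014). The catalytic subunit of polymerase alpha, POLA1 (-0.95), and the primase subunits PRIM1 (-0.86) and PRIM2 (-0.88) fell too, as did POLD3 (-0.73) and POLE3 (-0.52). The catalytic subunits of polymerases epsilon and delta did not pass. POLE, of polymerase epsilon, averaged 112 ± 15.6 CPM in sgZFP36L2 (SD, n = 4) and 145 ± 24.6 CPM in sgRosa libraries (SD, n = 3), a change of -0.37 (limma, adjusted p = 0.11). POLD1, of polymerase delta, had a change of 0.29 ± 0.24 (limma, adjusted p = 0.33) that turned to -0.42 with the GC correction, and POLD2 had 156 ± 15.7 CPM against 157 ± 27.2 CPM in sgRosa. POLA2, at 8.19 to 12.6 CPM in sgZFP36L2 libraries and 9.30 to 17.8 CPM in sgRosa libraries, was the least read and did not pass (limma, adjusted p = 0.19).

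The clamp, its loader and the single-strand binding protein gave 7 falls among 9 genes, and all 9 had arms without overlap. Over all genes 20.6% fell, and 23.7% had every sgZFP36L2 library below every sgRosa library. The median transcript GC content of the 9 was 45.4%, and 1853 of the 4563 genes under 45.77% GC fell. RFC3, a clamp loader subunit (chr13:33818049-33966558, plus strand), had 70.3 and 76.5 CPM with guide 3 and 75.2 and 84.2 CPM with guide 5, against 171, 197 and 126 CPM in sgRosa libraries. The guides gave similar values, well below sgRosa, and the change was -1.08 ± 0.18 (limma, adjusted p = 0.0007). PCNA, the sliding clamp (chr20:5114953-5126626, minus strand), had the highest level per length of the 56 genes, 307 CPM per kilobase of its longest transcript as a mean over all 7 libraries. It had 288 and 361 CPM with guide 3 and 357 and 390 CPM with guide 5, against 573, 449 and 507 CPM in sgRosa libraries. PCNA fell by 0.55 ± 0.17 on the log2 scale (limma, adjusted p = 0.021), a smaller change than that of the loader subunits RFC1 (-0.84), RFC3, RFC4 (-0.76) and RFC5 (-0.65), though these differences between genes were not tested. The call of PCNA was lost without sgRosa replicate 1, guide 3 replicate 1 or either guide 5 library, and with the GC correction (-0.30, limma adjusted p = 0.11). Of the replication protein A subunits, which coat single-stranded DNA, RPA3 (-0.80) and RPA1 (-0.55) fell. RPA2 (77.8 ± 2.83 CPM in sgZFP36L2, n = 4, against 95.8 ± 4.44 CPM in sgRosa, n = 3, SD) and RFC2 (49.2 ± 1.06 CPM against 60.8 ± 3.68 CPM in sgRosa, SD) had changes of -0.30 each that did not pass.

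FEN1, the nuclease that trims Okazaki fragments (chr11:61792637-61797244, plus strand), had 92.9 and 115 CPM with guide 3 and 82.2 and 82.7 CPM with guide 5, against 137, 105 and 150 CPM in sgRosa libraries. The arms overlapped, since guide 3 replicate 2 was above sgRosa replicate 2. Its change of -0.49 ± 0.18 was just past the threshold (limma, adjusted p = 0.043), and the call was lost when any library other than sgRosa replicate 2 was left out. FEN1 also shares 49 exon bases with FADS2 on the same strand and 166 with TMEM258 on the other, and whether the counting used strand is not given in the sources used here. LIG1, the ligase that joins the fragments, changed by -0.19 and did not pass (limma, adjusted p = 0.39).

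Genes of deoxynucleotide supply were mixed. RRM1, the subunit of ribonucleotide reductase that holds the active site (chr11:4094707-4138876, plus strand), had 181 and 204 CPM with guide 3 and 222 and 244 CPM with guide 5, against 368, 339 and 309 CPM in sgRosa libraries. The arms did not overlap and RRM1 fell by 0.68 ± 0.16 on the log2 scale (limma, adjusted p = 0.0053), while RRM2, its partner subunit, had overlapping arms and a change of -0.39 (limma, adjusted p = 0.10). TYMS, which makes thymidylate, fell (-0.52). DUT, the dUTPase, had 72.4 to 80.2 CPM in sgZFP36L2 libraries but 209, 78.4 and 151 CPM in sgRosa libraries. The level of DUT in sgRosa replicate 2 thus lay inside the sgZFP36L2 range, and its change of -0.80 ± 0.27 (limma, adjusted p = 0.030) was not called when any library other than sgRosa replicate 2 was left out. TK1, the salvage kinase for thymidine, had a positive change of 0.45 ± 0.22 that did not pass (limma, adjusted p = 0.11) and turned to -0.22 with the GC correction.

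SLBP, which binds the stem-loop of replication-dependent histone mRNAs (chr4:1692800-1712555, minus strand), had 89.7 and 90.8 CPM with guide 3 and 77.6 and 93.8 CPM with guide 5, against 165, 178 and 131 CPM in sgRosa libraries. The arms were well apart and the change was -0.84 ± 0.17 (limma, adjusted p = 0.0025). Of the chromatin assembly factor subunits that deposit new histones, CHAF1B fell (-0.69) and CHAF1A did not pass (-0.29, limma adjusted p = 0.22). The 3 genes of fork stability, with a median transcript GC content of 41.3%, all fell, where 20.6% of all genes did. WDHD1, which links the helicase to polymerase alpha (chr14:54938950-55027105, minus strand), had 34.0 and 30.9 CPM with guide 3 and 45 and 55.3 CPM with guide 5, against 79.8, 95.7 and 67.3 CPM in sgRosa libraries. Guide 3 gave the lowest values of WDHD1, no values of the arms overlapped, and the change was -0.98 ± 0.18 (limma, adjusted p = 0.0013). TIPIN (-0.79) and CLSPN (-0.77), which pass stalled-fork signals to the checkpoint, were the others.

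Before the GC correction the regulators went in opposite directions. E2F1, an activator of S phase transcription (chr20:33675683-33686404, minus strand), had 37.2 and 52.7 CPM with guide 3 and 43.2 and 38.5 CPM with guide 5, against 31.1, 23.6 and 33.8 CPM in sgRosa libraries. Every sgZFP36L2 value of E2F1 was above every sgRosa value. The change of 0.54 ± 0.20 was just past the threshold (limma, adjusted p = 0.045), but it turned to -0.13 with the GC correction (adjusted p = 0.42) and was not called when sgRosa replicate 1 or 2, guide 3 replicate 2 or either guide 5 library was left out. E2F2, another activator, also had arms without overlap, at 40.5 ± 3.57 CPM in sgZFP36L2 (SD, n = 4) and 34.9 ± 1.59 CPM in sgRosa libraries (SD, n = 3), and a change of 0.21 that did not pass (limma, adjusted p = 0.33) and was -0.22 after the correction. CCNE2, a cyclin of S phase entry, fell (-0.82, limma adjusted p = 0.0072), but was at -0.24 after the correction (limma, adjusted p = 0.17). None of the 3 regulators was then called, and all lay below 0.

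**Figure D2:**
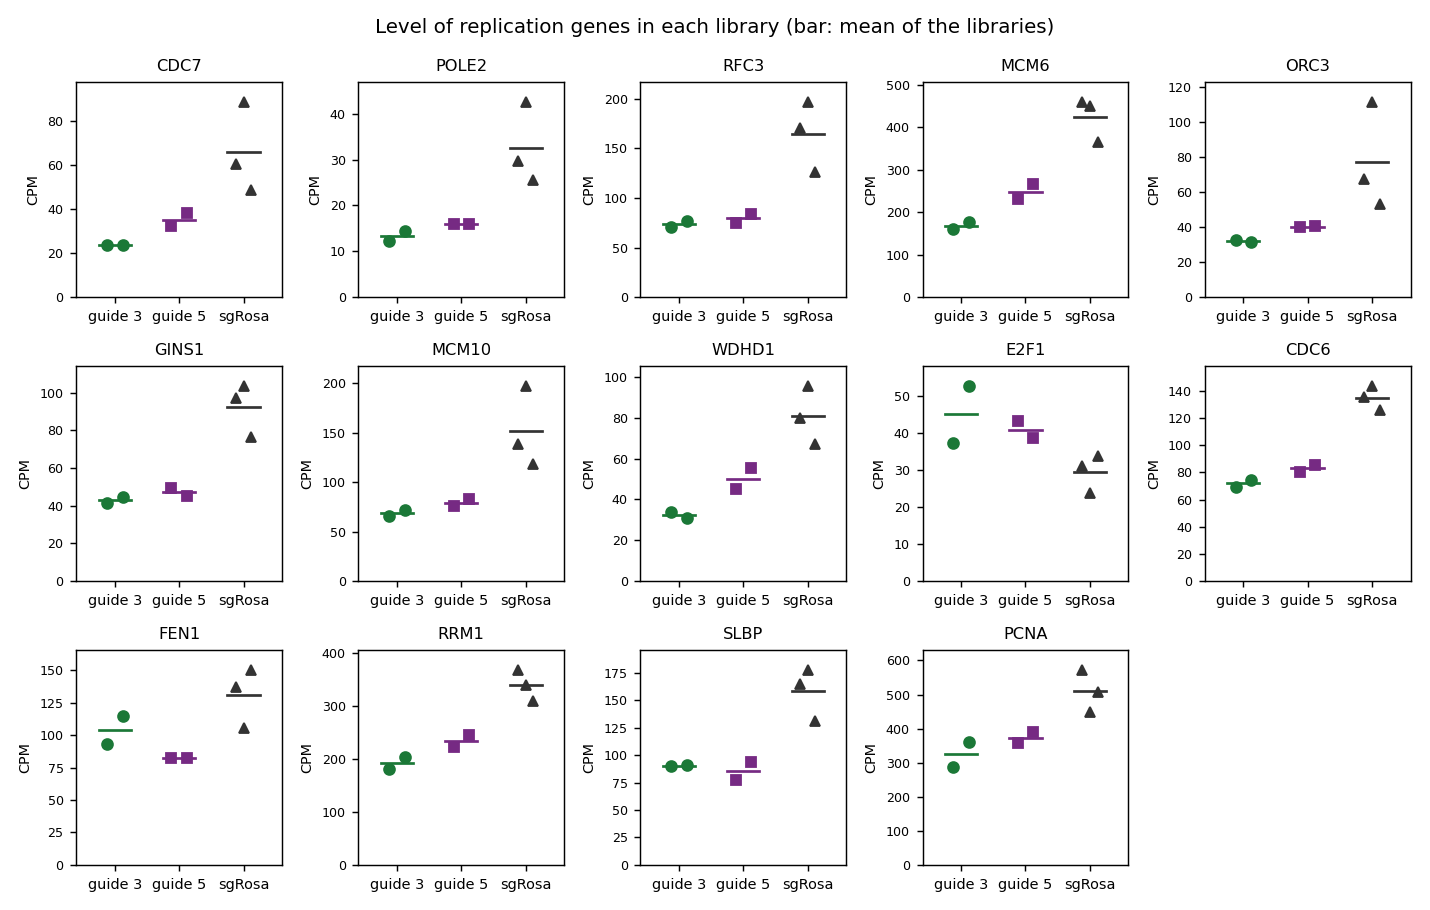
Level in CPM (y axis, from 0, a scale for each gene) of 14 replication genes in each library with guide 3 (circles), guide 5 (squares) and sgRosa (triangles), with a bar at the mean. All but E2F1 are lower with the guides, and the arms overlap for FEN1 alone of the 14.

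Each guide was also set against the same 3 sgRosa libraries. With guide 3, 36 replication genes fell and 0 rose, where 18.9% of all genes fell and 21.2% rose, and the median of the 56 was -0.79. With guide 5, 20 fell and 0 rose, where 7.68% of all genes fell and 12.2% rose, and the median was -0.60. The authors' deposited table gave 37 falls and 0 rises among the 56 with guide 3 (19.3% and 20.4% of its 11581 genes) and 20 falls and 0 rises with guide 5 (7.82% and 11.8%). CDC7 changed by -1.42 with guide 3 and -0.86 with guide 5, MCM6 by -1.32 and -0.77, and POLA1 by -1.29 and -0.60, of which the last did not pass. RFC3 (-1.14 with guide 3 and -1.02 with guide 5) and SLBP (-0.79 and -0.88) had similar values with both. A direct test of guide 5 against guide 3 called 0 of the 56 genes lower and 0 higher, where 0.0614% and 0.351% of all genes were called. The lowest adjusted p among the 56 was 0.35, and 4 genes had an unadjusted p under 0.05 (limma). The median of guide 5 minus guide 3 was 0.12 for the 56 genes, 42 of which were above 0, and -0.03 over all genes. The counts for a single guide depend on each library. Without a library of a guide, that guide keeps 1 library, and fewer genes passed, among the 56 and over all genes. The median change of the 56 with guide 3 was -0.71 without its replicate 1 and -0.81 without its replicate 2. With guide 5 it was -0.53 without its replicate 1 and -0.65 without its replicate 2. Fewer genes also passed with guide 5 when a guide 3 library was left out. The falls with guide 5 numbered 10 without sgRosa replicate 1, beside 371 over all 11408 genes. Without sgRosa replicate 2 they numbered 34, beside 1371 over all genes.

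**Figure D3:**
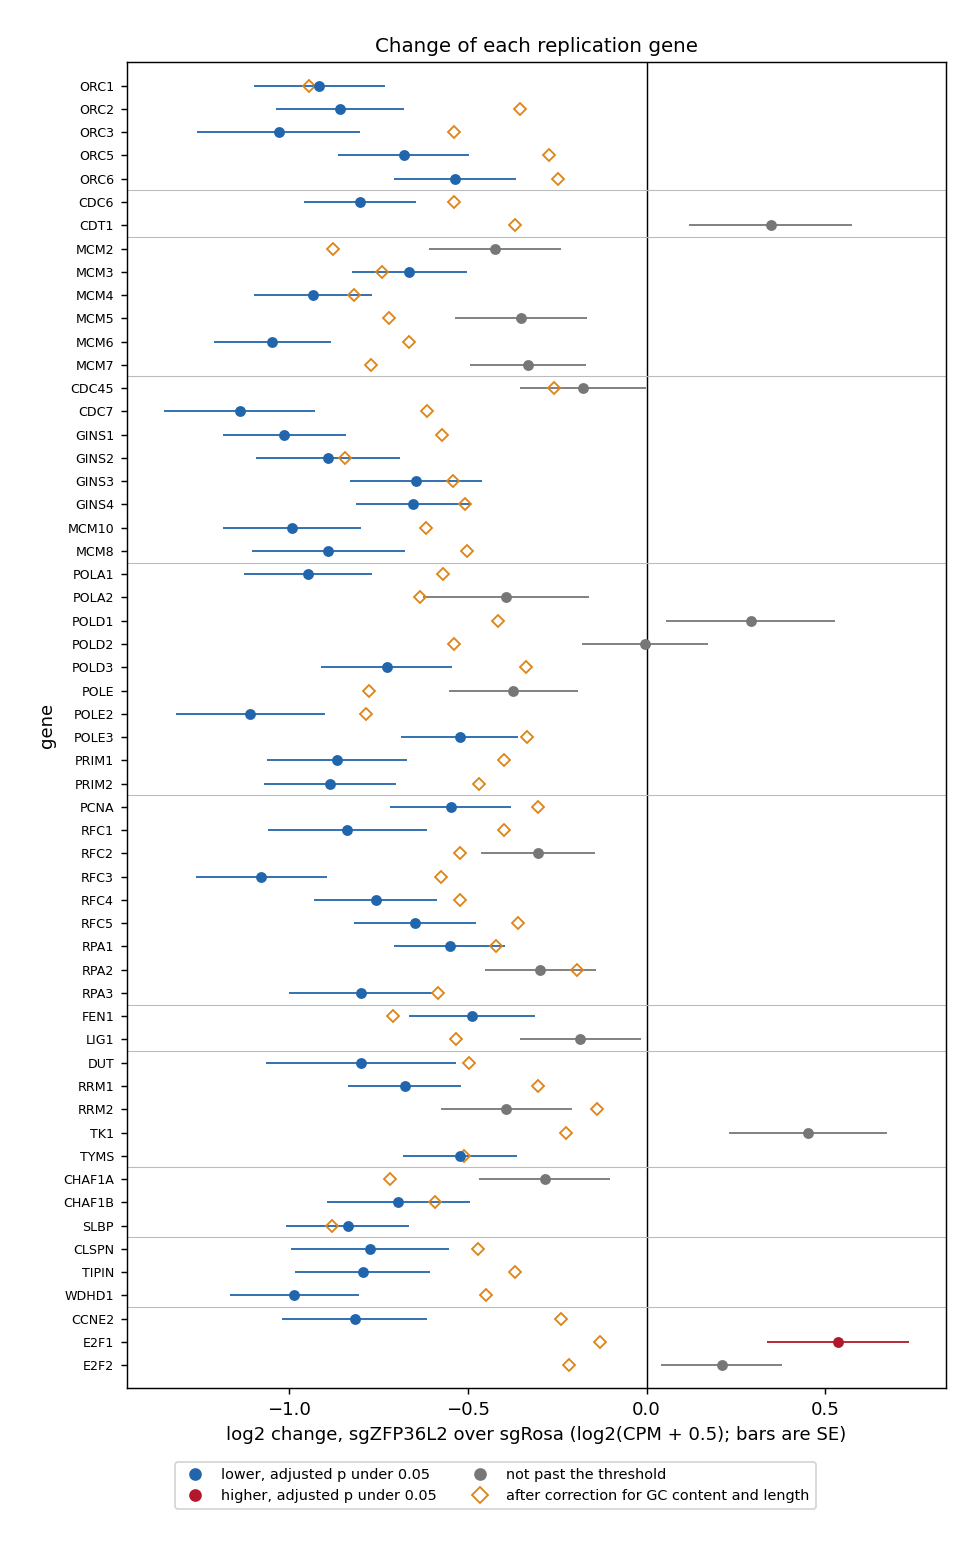
Log2 change of each replication gene (x axis), sgZFP36L2 over sgRosa, as filled points with SE bars, and the same corrected for transcript GC content and length as open diamonds, with genes in rows by role. Filled points range from -1.14 (CDC7) to 0.54 (E2F1), and all 56 diamonds lie below 0.

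The replication genes that fell had transcripts of lower GC content. The longest transcript of the 39 genes that fell had 36.9% to 53.7% GC (median 44.2%), and that of the 17 others 45.8% to 65.0% (median 57.5%). All 26 replication genes under 45.77% GC fell, where 1853 of the 4563 genes in that range did. Of the 15 between 45.77% and 51.82% 12 fell, and of the 15 above that range FEN1 fell, E2F1 rose and the others did not pass. Above 51.82% GC, 112 of 4563 genes fell and 1824 rose. Across genes, which are not independent and come from the same 7 libraries, Pearson's r between the change and GC content was 0.87 over the 56 and 0.51 over all 11408.

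The log2 values were therefore also corrected in each library for a smooth trend on transcript GC content and length. After this correction 38 of the 56 genes fell and 0 rose, where 16.0% of all genes fell and 18.5% rose. All 56 changes were then below 0, with a range of -0.94 to -0.13 and a median of -0.52, beside -0.04 over all genes. Of the 39 genes that fell before, 28 were still called and 11 were not, among them all ORC subunits but ORC1 and ORC2, and also PCNA, RRM1 and CCNE2. Another 10 genes were called only after it, including MCM2 (-0.88), MCM7 (-0.77) and MCM5 (-0.72). All 6 subunits of the MCM ring were called then, between -0.88 and -0.66. The catalytic polymerase subunits POLE (-0.78) and POLD1 (-0.42) and the ligase LIG1 (-0.53) were called as well. Genes called lower with and without the correction include CDC7 (-0.61 corrected), POLE2 (-0.78), SLBP (-0.88), ORC1 (-0.94), MCM4 (-0.82) and MCM6 (-0.66). Why GC content moved with the change was not tested.

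**Figure D4:**
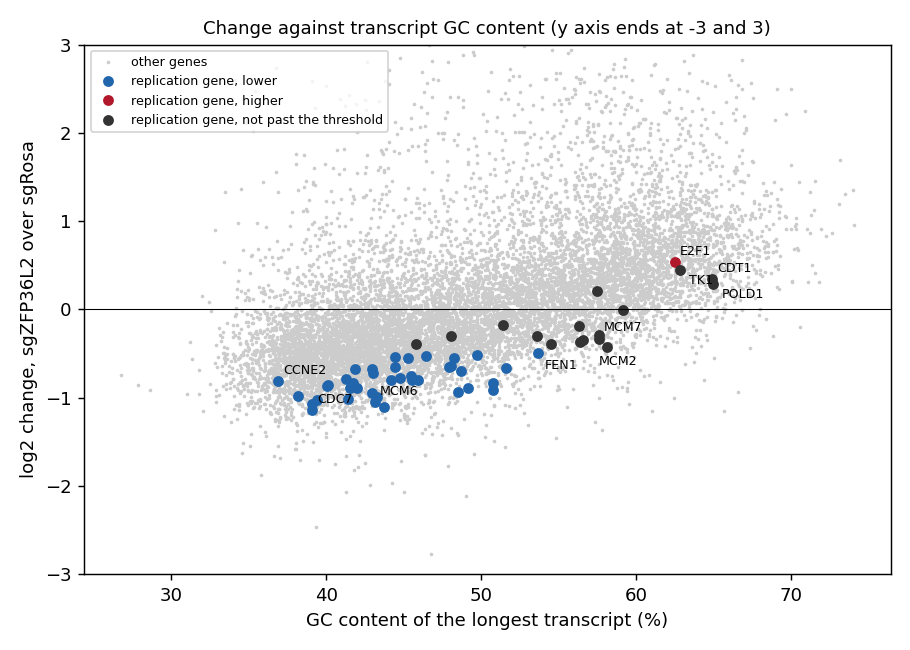
Log2 change, sgZFP36L2 over sgRosa (y axis, cut at the ends shown), against the GC content of the longest transcript in percent (x axis), for the 56 replication genes (large points, by call) and the other genes (grey). Both sets rise to the right, and the replication genes lie mostly along the lower side of the grey cloud at a given GC content.

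Sites of the kind that ZFP36L2 is known to bind were present in a minority of the replication genes. The heptamer TATTTAT, in RNA the core of an AU-rich element, was in the longest annotated 3′ UTR (GENCODE 29) of 13 of the 56 genes (23.2%), against 34.9% of 10625 genes. The genes that fell held it in 9 of 39 cases and the others in 4 of 17, with median 3′ UTR lengths of 1201 and 684 bases. Over all genes it was in 44.6% of those that fell and 26.6% of those that rose, and 3′ UTRs of all fallen genes had a longer median length (1781 bases) than those of all risen genes (912 bases). Per kilobase of 3′ UTR there were 0.294 heptamers in the 56 genes and 0.313 over all. Among the 56 there were 0.249 per kilobase in those that fell and 0.438 in the others. Over all genes there were 0.346 in those that fell and 0.292 in those that rose.

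Windows are shown for MCM10 and TIPIN, which fell, and for E2F1, which was called higher before the GC correction but not after it (-0.13). They lie on GRCh38 at chr20:33676155-33676183 (minus strand, E2F1 site 1, in which 2 heptamers overlap), chr20:33675997-33676025 (minus strand, E2F1 site 2), chr10:13210768-13210796 (plus strand, MCM10) and chr15:66336803-66336831 (minus strand, TIPIN, with 2 overlapping). Heptamers are in capitals.
E2F1 site 1: taatggagcgtTATTTATTTATcgaggcc
E2F1 site 2: cctgggtgattTATTTATtgggaaagtga
MCM10: aaagaataaagTATTTATtaataagaacc
TIPIN: tgataatctggTATTTATTTATaattatg

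Neighbouring pathways of replication, taken from lists of genes outside the 56, went mostly the same way. Over all genes, 20.6% fell and 20.9% rose. Median transcript GC content in the lists of this paragraph was 42.4% to 45.5%, and 1853 of the 4563 genes under 45.77% GC fell. TOPBP1 and CDC25A each belong to the checkpoint list and to another of these lists. Of 25 further replication factors 15 fell and 1 rose (median -0.58). DSCC1, a subunit of the alternative clamp loader that aids cohesion, had 46.2, 48.8, 45.6 and 62.2 CPM in sgZFP36L2 libraries and 138, 108 and 107 CPM in sgRosa libraries (-1.21), ESCO2, which acetylates cohesin in S phase, changed by -1.20, and ATAD5, which unloads PCNA, by -1.16. POLD4, the small subunit of polymerase delta, rose (0.94) at 3.88 to 6.64 CPM in sgZFP36L2 libraries and 1.64 to 2.66 CPM in sgRosa libraries. Of 12 checkpoint genes 8 fell and 0 rose (median -0.68), among them the kinases ATR (-1.08) and CHEK1 (-1.02) and the ATR activator ETAA1 (-1.12). Of 10 genes of chromatin assembly at the fork 7 fell and 0 rose (median -0.82), with HELLS, a remodeller needed for DNA methylation, at -1.23 and the histone chaperone RBBP4 at -0.91. Of 20 E2F and DREAM regulators 8 fell and 0 rose (median -0.37), including SKP2, of the ligase that removes p27 (-0.99), E2F5 (-1.05) and the pocket protein RBL1 (-0.80).

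Genes of nucleotide metabolism outside the 56 moved in both directions. Of 24 genes 11 fell and 5 rose (median -0.43), where 20.6% of all genes fell and 20.9% rose. The share of the 24 that rose was thus near that of all genes. The synthetic enzymes GMPS (-0.95) and CTPS2 (-0.94) fell, while the synthetic enzymes MTHFD2 (0.76), SHMT2 (0.55) and IMPDH1 (0.53), chosen after their values were seen, rose. MTHFD2 and SHMT2 passed with guide 5 (1.24 and 0.86) but not with guide 3 (0.27 and 0.23). IMPDH1 passed with guide 3 (0.74) but not with guide 5 (0.33). SHMT2 (0.23) and IMPDH1 (-0.13) were not called after the GC correction. SAMHD1, which breaks down deoxynucleotides, rose (1.20), with 472 to 618 CPM in sgZFP36L2 libraries and 193 to 294 CPM in sgRosa libraries. TYMP, which breaks down thymidine, rose (limma, adjusted p = 1.31e-05), with 201 to 387 CPM in sgZFP36L2 libraries and 31.6 to 79.9 CPM in sgRosa libraries. After the GC correction 15 of the 24 genes fell and 3 rose, where 16.0% of all genes fell and 18.5% rose. With the correction the further replication factors gave 11 falls of 25 and the checkpoint 8 of 12. Chromatin assembly gave 7 of 10 and the E2F and DREAM regulators 6 of 20, and none of these 4 lists had a rise. ETAA1 (-0.53, limma adjusted p = 0.062), RBL1 (-0.31, adjusted p = 0.072) and POLD4 (0.50, adjusted p = 0.065) were not called then.

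Within the arms, libraries tended to be high or low for many replication genes together. Of the 4 sgZFP36L2 libraries, guide 3 replicate 1 was the lowest for 32 of the 56 genes and guide 5 replicate 2 the highest for 30. Among sgRosa libraries, replicate 2 was the highest for 35 and replicate 3 the lowest for 31. Of the 40 genes called, 27 stayed called with each library left out in turn. The others were ORC5, ORC6, GINS3, POLE3, PCNA, RFC5, RPA1, FEN1, DUT, TYMS, CHAF1B, CLSPN and E2F1. Without guide 5 replicate 1, 27 replication genes fell. Without sgRosa replicate 2, 42 fell, MCM2, MCM7 and POLA2 among them, and without sgRosa replicate 3 RRM2 also fell and CDT1 and TK1 rose. Several genes share exon bases with a neighbour on the same strand, so reads could be split between them: POLA2 shares 2012 with AP000944.2, RRM2 1077 with AC007240.1, TIPIN 579 with RPL9P25, POLD1 426 with AC020909.1, PRIM1 362 with AC117378.1 and 33 with NACA, POLD3 123 with AP001372.2 and CHAF1B 89 with MORC3. TYMS shares 967 with ENOSF1 and CCNE2 1629 with INTS8 on the other strand.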

How the data were processed

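RNA-seq of MOLM13 cells was analysed in 7 libraries. Per the labels' protocols, poly(A) RNA was made into directional libraries and read single-end. STAR 2.5.3, HTSeq, edgeR and limma are named in the submitters' processing notes with GRCh38.p7 and hg38, without roles. One table deposited by the authors holds FPKM per library, which were found to be per kilobase of the whole gene span. The other deposited table holds the authors' log2 fold changes for each guide over sgRosa, with an FDR for each, and a group signal in CPM of an adjusted library size. The span of each gene, the mean CPM over the mean FPKM, was a whole number of bases (within 0.01) for all 11408 genes, and FPKM times span gave CPM, from which whole reads (within 0.01) were recovered for 100% of values.

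Genes with at least 1 CPM in at least 2 libraries were tested, which were all 11408. The fit of log2(CPM + 0.5) used limma 3.58.1 (R 4.3.3), 1 mean for each of sgRosa, guide 3 and guide 5, and a mean-variance trend (4 residual degrees of freedom). Benjamini-Hochberg adjustment of p ran over all genes. The count of all-gene calls is the background of the member counts. CPM was used because a floor of 1 FPKM would leave 45 of the 56 genes. The fit was tested on simulated data. The members, lists and tests were chosen with earlier results of these data known. Values in every library are given for the 8 lowest and up to 4 highest called changes, the gene with the smallest p in each remaining role, and the gene with the highest level per kilobase of transcript; others are named by role, and 1 gene of the neighbouring lists is not reported here. GC content and length come from the longest basic GENCODE 29 transcript, and the correction used splines with 5 degrees of freedom for each. Alternatives were other pseudocounts, filters, scalings, variance models, groupings, the FPKM scale, voom on recovered reads, a replicate block and leaving out each library.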

Additional observations from a re-analysis of the deposited data

Results flagged for a closer look

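Among the 4 sgZFP36L2 libraries, 3 of the 56 replication genes had a library that stood apart from the others by the gap to its nearest neighbour relative to the range. Chance flags about 1 in 20 such groups. ORC6 was at 27.9 CPM in guide 3 replicate 1, below the other libraries of its arm. TIPIN was at 21.6 CPM and CCNE2 at 105 CPM in guide 5 replicate 2, each above the others. All 3 values were below the lowest sgRosa library. The 4 libraries hold 2 guides.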

How the results depend on the processing

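Of the 40 called replication genes, 21 were called under all alternatives that tested them, up to 21 each. The count of falls stayed within 1.5 times of 39 throughout (27 to 42 with a library left out). The median change ranged from -0.73, with the replicate block and likewise without sgRosa replicate 3, to -0.52 with the GC correction. This median was -0.54 on the FPKM scale, where 45 of the 56 genes were tested. Rises numbered 0 with a common sum, without a variance trend and with the GC correction, 4 with the replicate block (CDT1, POLD1, TK1 and E2F1), and 0 to 3 with a library left out. The GC correction turned CDT1 to -0.37, POLD1 to -0.42 and E2F1 to -0.13. With guide 3 there were 3 rises with the replicate block, 2 with library weights and 0 to 3 with a library left out, and 14 to 40 falls with a library left out. Falls with guide 5 numbered 12 on the FPKM scale, 37 with library weights and 11 with the compared groups alone. Over all genes those falls numbered 503, 1870 and 469. With an sgRosa library left out, 10 to 34 replication genes fell with guide 5, and 371 to 1605 of all genes did. Guide 5 against guide 3 gave 7 rises with library weights, where 908 of all genes rose and 1366 fell. It gave 7 rises with the compared groups alone, where 709 of all genes rose and 1141 fell. With an sgRosa library left out it gave 0 to 1. In the main fit 40 of all genes rose and 7 fell between the guides. Over all genes, 1339 fell and 1526 rose on the FPKM scale, which tests 6783 genes, and 1111 to 2951 fell with a library left out. Without guide 3 replicate 2 the falls over all genes numbered 1166 and without guide 5 replicate 1 they numbered 1111. The cause of these differences was not tested.

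With the replicate block, 39 replication genes fell, 34 with guide 3 and 26 with guide 5. FEN1 was no longer called (-0.38, limma adjusted p = 0.18), and RRM2 fell. Only sgRosa has a replicate 3, so the block gave the same changes as leaving that library out, with other p-values. Libraries with the same number deviated together with correlations of -0.49 to 0.37, so the numbers were not taken to pair them. Groups of 2 or 3 libraries limit all tests here, and calls near the threshold, such as FEN1, DUT, PCNA and E2F1, depend on single libraries. The least read gene, POLA2, had 199 reads in its lowest library, and read counts cover counting error only.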
